A study of Mus musculus with 6 samples.

Results

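The BCL2 family decides whether the outer mitochondrial membrane stays sealed, and 10 of its genes were followed here in AML-12 cells, a mouse line of hepatocyte origin, with less manganese superoxide dismutase (MnSOD). The genes were Bcl2, Bcl2l1, Bcl2l2 and Mcl1, which protect cells, Bak1 and Bok, which encode pore-forming proteins, and Bcl2l11, Bid, Bad and Bmf, which encode BH3-only proteins. They were taken as the rows of the deposited table whose single annotated symbol was one of these names, and all 10 were found, each with 1 probe set, among 19938 genes with 1 symbol. RNA of each sample was hybridised to its own Affymetrix Mouse Gene 1.0 ST array. The 3 siMnSOD samples were AML-12 cells stably carrying a retroviral hairpin against MnSOD, the product of Sod2, and the 3 siScramble samples were AML-12 cells carrying a hairpin with no target gene. All 6 samples shared the pSUPER.retro.puro backbone, puromycin selection, serum-containing medium and no further treatment. AML-12 was established from hepatocytes of a mouse transgenic for human transforming growth factor alpha. The hairpin was designed for a low level of silencing, and 3 batches of frozen cells were used. The labels call the samples of each group biological replicates. Whether each sample had its own transduction is not given in the sources used here. The p-values therefore speak of the spread among these arrays alone, which may be technical.

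Proteins of this family act on one another at the mitochondrial surface. BCL2, BCL-XL (from Bcl2l1), BCL-W (from Bcl2l2) and MCL1 hold BH3 domains of death-promoting relatives in a groove and so hold back pore formation. When BH3-only proteins such as BIM (from Bcl2l11) or BID outnumber the free grooves, BAK assembles into pores, cytochrome c leaves the mitochondria and caspases are activated. In hepatocytes, BCL-XL and MCL1 are the protective members that cells are known to depend on, and BID links death receptors to mitochondria. Superoxide dismutase of the mitochondrial matrix converts superoxide, a by-product of respiration, to hydrogen peroxide.

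Bcl2 fell in the siMnSOD cells, and no other member passed the test over all genes. Its normalized intensity was 201, 199 and 198 units in siMnSOD replicates 1, 2 and 3 and 283, 282 and 328 units in siScramble replicates 1, 2 and 3. The siMnSOD level was 67.3% of the siScramble level as a ratio of geometric means. Mcl1 and Bcl2l11 also read lower on each siMnSOD array than on any siScramble array, and Bak1 read higher, but these did not pass. Groups without overlap were seen for 20.9% of all genes. A gene is called here when its Benjamini-Hochberg adjusted p in limma, over all tested rows, is under 0.05. By this rule 1 of the 10 members was called, against 3.75% of all genes. Called lower were 1 of the 10 members and 1.58% of all genes, and called higher were none of the members and 2.17% of all genes. All genes include 6816 under the background guide given below in both groups, whereas all 10 members lay above it. A fit to rows brighter than the median row called 588 genes higher and 464 lower among 10050. Bcl2 was the 1 member called in that fit. The split over all genes was 432 higher and 316 lower, or 365 and 140 after centring arrays on their medians. With 10 members a single call is a small count, and the Bcl2 call was lost in several other settings given below. In a bulk lysate, less RNA per cell and fewer expressing cells cannot be told apart.

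Promoters are shown for the 4 members whose groups did not overlap, Bcl2, Mcl1, Bak1 and Bcl2l11. This was a choice for display, as the groups did not overlap for 20.9% of all genes. Mcl1, Bak1 and Bcl2l11 did not pass the test. Each window runs from 250 bases before to 50 bases after an annotated start, from RefSeq on GRCm38.p6, 5′ to 3′ on the gene's strand. All 10 members matched this table, with 16 starts in all. Capitals mark matches on either strand. The GC box was searched as GGGCGG. The motif of FOXO factors was searched as GTAAACA. The last motif with a match was the CCAAT box. The Bcl2 window lies at chr1:106714241-106714540 on the minus strand, and those of Bcl2l11 at chr2:128125788-128126087 and chr2:128127325-128127624 on the plus strand. The Mcl1 window lies at chr3:95658471-95658770 on the plus strand and that of Bak1 at chr17:27028578-27028877 on the minus strand.
Bcl2: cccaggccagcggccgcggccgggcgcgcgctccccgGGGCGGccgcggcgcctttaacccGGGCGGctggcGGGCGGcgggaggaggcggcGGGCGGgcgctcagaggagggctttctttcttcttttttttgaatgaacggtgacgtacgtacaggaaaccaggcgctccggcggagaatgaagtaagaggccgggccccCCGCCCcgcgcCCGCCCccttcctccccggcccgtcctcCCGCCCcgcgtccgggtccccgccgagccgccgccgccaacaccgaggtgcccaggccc
Bcl2l11, first start: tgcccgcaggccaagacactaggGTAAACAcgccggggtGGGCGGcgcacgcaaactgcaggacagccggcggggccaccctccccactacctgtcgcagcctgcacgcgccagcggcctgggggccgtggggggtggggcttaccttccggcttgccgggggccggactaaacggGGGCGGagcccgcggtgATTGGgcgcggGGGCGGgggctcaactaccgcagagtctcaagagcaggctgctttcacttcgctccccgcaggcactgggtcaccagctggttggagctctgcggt
Bcl2l11, second start: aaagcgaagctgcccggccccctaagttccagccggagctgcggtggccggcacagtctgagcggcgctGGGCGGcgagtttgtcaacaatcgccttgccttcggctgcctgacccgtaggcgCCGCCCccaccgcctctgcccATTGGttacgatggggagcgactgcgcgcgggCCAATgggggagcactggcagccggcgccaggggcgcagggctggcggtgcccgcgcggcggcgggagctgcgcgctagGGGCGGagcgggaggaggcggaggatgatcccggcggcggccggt
Mcl1: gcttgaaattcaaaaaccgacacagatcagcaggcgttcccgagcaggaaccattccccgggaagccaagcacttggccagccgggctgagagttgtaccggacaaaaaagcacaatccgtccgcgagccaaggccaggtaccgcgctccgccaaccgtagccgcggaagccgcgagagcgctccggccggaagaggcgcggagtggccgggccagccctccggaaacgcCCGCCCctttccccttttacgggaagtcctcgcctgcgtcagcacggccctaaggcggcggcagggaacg
Bak1: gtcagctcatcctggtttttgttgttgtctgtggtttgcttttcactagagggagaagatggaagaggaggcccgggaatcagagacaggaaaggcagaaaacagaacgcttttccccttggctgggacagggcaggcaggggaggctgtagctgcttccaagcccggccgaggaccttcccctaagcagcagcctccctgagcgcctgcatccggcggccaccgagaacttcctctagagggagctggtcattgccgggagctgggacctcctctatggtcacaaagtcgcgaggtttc

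The Bcl2 window was 76% G and C and held 7 GC boxes, whereas the Bak1 window, at 58.3%, held none of the motifs searched. Over all 32851 promoters in the table the median was 52.7%, and 35.7% held at least 1 GC box. The first Bcl2l11 start held 1 FOXO match, a motif present in 3.65% of all promoters and in none of the other 15 member windows, beside 3 GC boxes and 1 CCAAT box, which 37.4% of all promoters hold. The second Bcl2l11 start held 3 GC boxes and 2 CCAAT boxes, and Mcl1 held 1 GC box. The cyclic AMP element TGACGTCA was also searched and occurs in 1.79% of all promoters. The AP-1 motif was searched as TGANTCA and occurs in 7.81%, and the E-box, searched as CACGTG, in 7.15%. For STAT factors TTCNNNGAA was searched, which 8.3% hold, and for E2F factors TTTNGCGC, which 1.38% hold. The TATA box, searched as TATAAA, occurs in 13.6%, and the CHOP-ATF motif TTGCATCA in 0.895%. None of these was found in the 5 windows printed, and among the other member windows 1 Bcl2l1 start held an E2F match. A match is a run of letters and not a shown binding site.

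Before the members are described singly, the arrays need comment. Sod2 read 98.8, 121 and 52.3 units in siMnSOD replicates 1, 2 and 3 and 248, 254 and 293 units in the controls, so its level went the way the labels say (log2 fold change −1.63, SE 0.30, limma adjusted p = 0.037). This call was lost without replicate 1 or 2 of either group (highest adjusted p 0.13). Replicate 3 stood apart in both groups. Pearson r over all 35557 probe sets was 0.9921 between siMnSOD replicates 1 and 2 and 0.9934 between siScramble replicates 1 and 2. It was 0.9762 and 0.9763 between siScramble replicate 3 and the other controls, less than the 0.9853 between replicates 1 of opposite groups. The median over genes of the absolute distance between replicate 3 and the mean of replicates 1 and 2 was 0.27 on the log2 scale in siScramble and 0.22 in siMnSOD. Values of members that depended on siScramble replicate 3 are given with and without it. All 10 members lay above 4.28 on the log2 scale (19.4 units), the 95th percentile of 1027 olfactory receptor genes, which served as a guide to background.

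The cells were checked against hepatocyte markers, which gave a mixed picture. Of 8 markers, 3 lay under the background guide in both groups, the albumin gene Alb, the transthyretin gene Ttr and the urea cycle gene Cps1. Apoa1 and Tat were close to the guide, and the keratin genes Krt8 and Krt18 and the regulator gene Hnf4a were well above it. Of the biliary markers, Krt7, Krt19 and Sox9 were detected, and Epcam was under background. The summed intensity of the 4 measured biliary markers ranged from 3894 to 4180 units in siMnSOD and from 1904 to 3292 units in siScramble, while Sox9 itself fell (−0.86, SE 0.14, limma adjusted p = 0.027). Hepatocyte markers summed to between 13415 and 15596 units in siMnSOD and between 8388 and 13155 units in siScramble, mostly Krt8 and Krt18, and Hnf4a rose (1.09, SE 0.14, limma adjusted p = 0.013). Both calls were lost without siMnSOD replicate 1 or 2 or siScramble replicate 2, and that of Sox9 also without siScramble replicate 1 (highest adjusted p 0.15 for Sox9 and 0.08 for Hnf4a). Of the leukocyte, endothelial and stellate cell markers, 5 of 6, 4 of 5 and 3 of 6 were under background in both groups. For both sums the lowest control was siScramble replicate 3, the array that stood apart. The part of these differences in the results on the BCL2 family was not tested.

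**Figure D1:**
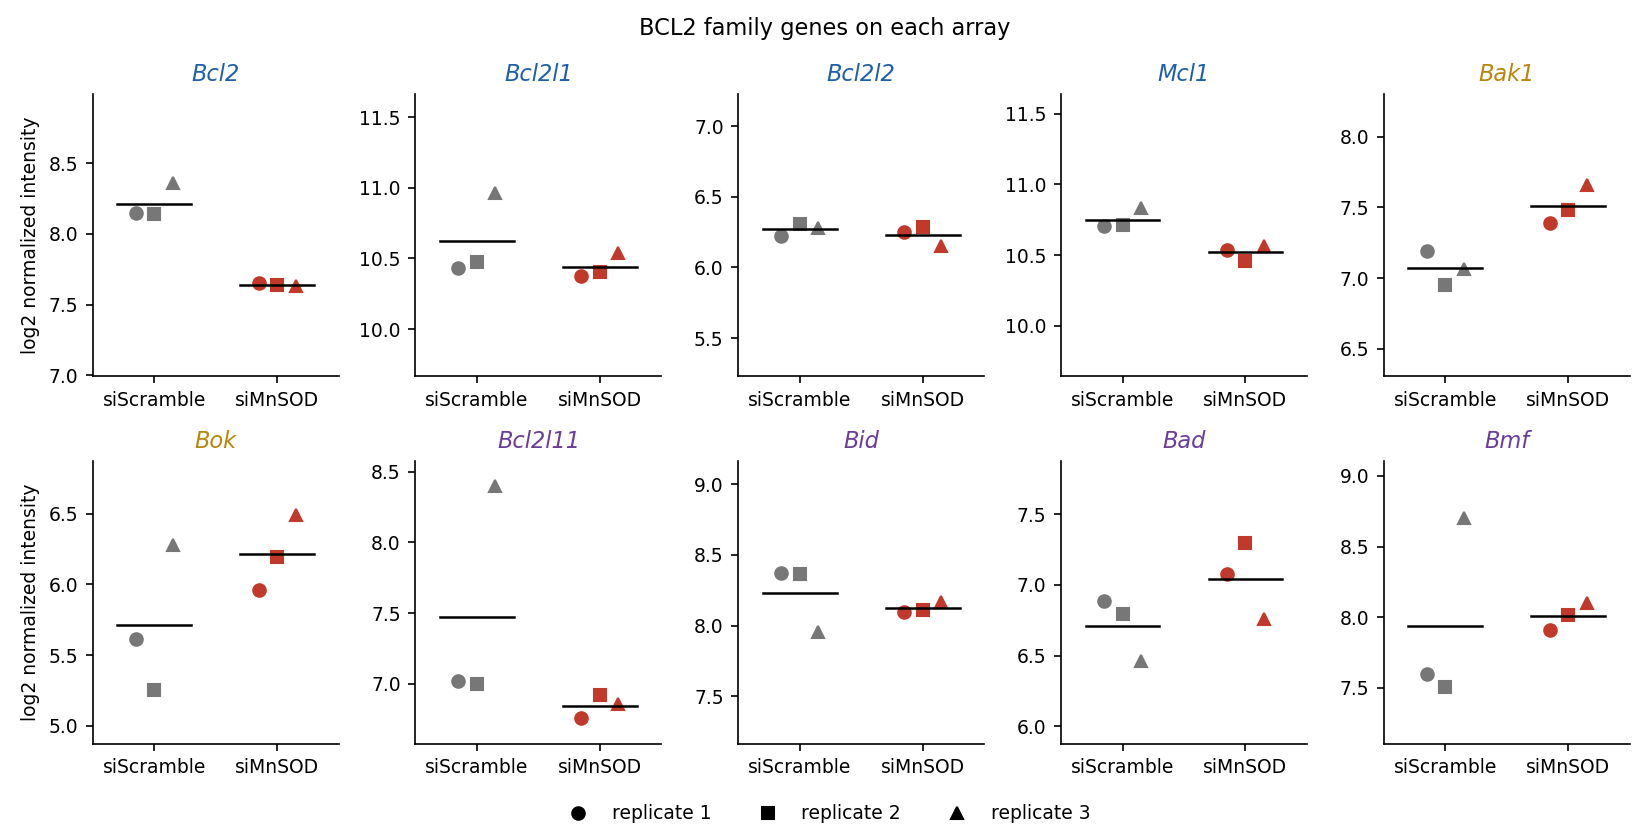
Normalized intensity (log2) of each of the 10 genes on each array, grey for siScramble and red for siMnSOD, with 1 symbol per replicate number and a line at the group mean. Every panel spans the same range of 2 log2 units. Bcl2 lies at 198 to 201 units on the 3 siMnSOD arrays and at 282 units or more on the controls, and siScramble replicate 3 is far above its group for Bcl2l11 and Bmf.

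Among the 4 survival genes, Bcl2 showed the widest separation of the groups relative to their spread. BCL2 protein was the founding member of the family and blocks death at mitochondria and the endoplasmic reticulum. The siMnSOD mean was 200 ± 1.64 units (SD, n = 3) and the siScramble mean 297 ± 26.2 units (SD, n = 3). Bcl2 thus had a log2 fold change of −0.57 (SE 0.11, 95% interval −0.82 to −0.32, limma adjusted p = 0.038), and blocking on the replicate number gave an adjusted p of 0.035. Within replicate numbers 1, 2 and 3 the log2 difference was −0.49, −0.50 and −0.72. As the groups did not overlap, any matching of arrays would give only negative differences, so their shared sign adds no support. In an exact two-sided permutation test p was 0.1, and no lower p can be reached with 3 arrays a group.

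The size of the Bcl2 difference was steady, but its call was not. Over 15 alternative settings the log2 fold change lay between −0.61 and −0.49, and the call held in 7 of them. It was lost without siMnSOD replicate 1 (adjusted p = 0.13), 2 (0.18) or 3 (0.078) and without siScramble replicate 1 (0.13) or 2 (0.14). It was also lost when arrays were centred on their medians (0.076), when all probe sets were tested (0.068) and with an intensity trend in the variance prior (0.054). Without siScramble replicate 3 it held, with a log2 fold change of −0.50 and an adjusted p of 0.022.

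Mcl1, whose short-lived protein traps BIM and BAK, was slightly lower. It read 1483, 1404 and 1515 units in siMnSOD replicates 1, 2 and 3 and 1672, 1682 and 1821 units in the controls. The groups did not overlap, but the difference was small (log2 fold change −0.23, SE 0.10, 95% interval −0.47 to 0.00) and did not pass (limma adjusted p = 0.31). The log2 difference was −0.17, −0.26 and −0.27 within the 3 replicate numbers, and it kept its sign in every one of the 15 alternatives, where the adjusted p was never under 0.065.

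Bcl2l1 encodes BCL-XL, and its readings overlapped between the groups. The values were 1327, 1352 and 1486 units in siMnSOD and 1384, 1421 and 1992 units in siScramble, in the order of the replicate numbers. Control replicate 3 was the highest of all 6 arrays, and the other 5 lay between 1327 and 1486 units. The log2 fold change was −0.19 (SE 0.16, 95% interval −0.57 to 0.20, limma adjusted p = 0.81), and it was −0.02 without siScramble replicate 3. Bcl2l2, the gene for BCL-W, read 76.1, 77.9 and 71.1 units in siMnSOD and 74.8, 79.3 and 77.6 units in siScramble. Its log2 fold change was −0.04 (SE 0.10, 95% interval −0.27 to 0.19), so a change larger than 0.27 on the log2 scale lay outside the interval. After median centring the value had the other sign, 0.04. All 4 survival genes thus had negative fold changes in the fit to all 6 arrays, with Bcl2l2 the exception after centring, and 1 of them passed.

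Both pore-forming genes read higher on average in the siMnSOD cells, and neither passed. BAK, from Bak1, sits in the outer mitochondrial membrane and forms the pore when activated. Bak1 read 168, 179 and 202 units in siMnSOD and 146, 124 and 134 units in siScramble, so the groups did not overlap. Its log2 fold change was 0.44 (SE 0.12, 95% interval 0.16 to 0.73), with limma p-values of 0.0082 before and 0.11 after adjustment, and 0.085 after adjustment in the blocked fit. The log2 difference was 0.20, 0.53 and 0.59 within replicate numbers, and lay between 0.37 and 0.53 in the 15 alternatives. It passed in 1 of these, with arrays weighted by their estimated quality (adjusted p = 0.025).

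BOK is a pore-forming relative that can permeabilise mitochondria without the other effectors. Bok read 62.4, 73.3 and 89.9 units in siMnSOD and 48.9, 38.2 and 77.7 units in siScramble, and control replicate 3 lay inside the siMnSOD range. The log2 fold change was 0.50 (SE 0.27, 95% interval −0.15 to 1.15, limma adjusted p = 0.49). The value turned on single control arrays, at 0.78 without siScramble replicate 3 (adjusted p = 0.051) and 0.27 without siScramble replicate 2 (adjusted p = 0.94), and it was 0.36 without siMnSOD replicate 3 (adjusted p = 0.68). In replicates 1 and 2 alone it was 0.65 and passed (adjusted p = 0.035). The fold changes of Bak1 and Bok were positive in the main fit and in all 15 alternatives, centring and quantile normalization included.

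The BH3-only genes did not share a direction, and the values of Bcl2l11 and Bmf turned on 1 control array. BIM, from Bcl2l11, binds all the protective members and can activate BAK directly. Bcl2l11 read 108, 121 and 116 units in siMnSOD and 130, 128 and 337 units in siScramble. The groups did not overlap, but siScramble replicates 1 and 2 were close to the siMnSOD arrays and replicate 3 was far above. The log2 fold change was −0.62 (SE 0.37, 95% interval −1.49 to 0.24, limma adjusted p = 0.54), the largest in size of the 10, with the widest interval. Without siScramble replicate 3 it was −0.16 (adjusted p = 0.45). The log2 difference was −0.26, −0.08 and −1.54 within replicate numbers 1, 2 and 3.

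BMF is a BH3-only protein that is held at the myosin motor through a dynein light chain. Bmf read 241, 259 and 274 units in siMnSOD and 194, 182 and 417 units in siScramble, so the siMnSOD arrays lay between the low and the high controls. With all 6 arrays the log2 fold change was 0.07 (SE 0.31, 95% interval −0.67 to 0.81, limma adjusted p = 1). Without siScramble replicate 3 it was 0.45 and passed (adjusted p = 0.047), as in replicates 1 and 2 alone (0.41, adjusted p = 0.022). Without siScramble replicate 1 or 2 the sign turned, to −0.10 and −0.15. Within replicate numbers 1, 2 and 3 the log2 difference was 0.31, 0.51 and −0.61.

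Bid and Bad showed smaller differences. BID is cut by caspase 8 and carries the death receptor signal to mitochondria. Bid read 273, 277 and 287 units in siMnSOD and 332, 329 and 248 units in siScramble, with control replicate 3 the lowest of the 6 arrays. Its log2 fold change was −0.11 (SE 0.14, 95% interval −0.44 to 0.22, limma adjusted p = 0.95), −0.24 without siScramble replicate 3 (adjusted p = 0.19) and −0.26 in replicates 1 and 2 alone (adjusted p = 0.051). Without siScramble replicate 1 or 2 it was −0.04. BAD neutralises BCL2 and BCL-XL until survival kinases phosphorylate it. Bad read 135, 157 and 108 units in siMnSOD and 118, 111 and 87.9 units in siScramble, and replicate 3 was the lowest of its group on both sides. Its log2 fold change was 0.33 (SE 0.18, 95% interval −0.10 to 0.76, limma adjusted p = 0.49), and the log2 difference was 0.19, 0.50 and 0.29 within the replicate numbers. It was 0.20 without siMnSOD replicate 2 (adjusted p = 0.92) or siScramble replicate 3 (adjusted p = 0.6).

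**Figure D2:**
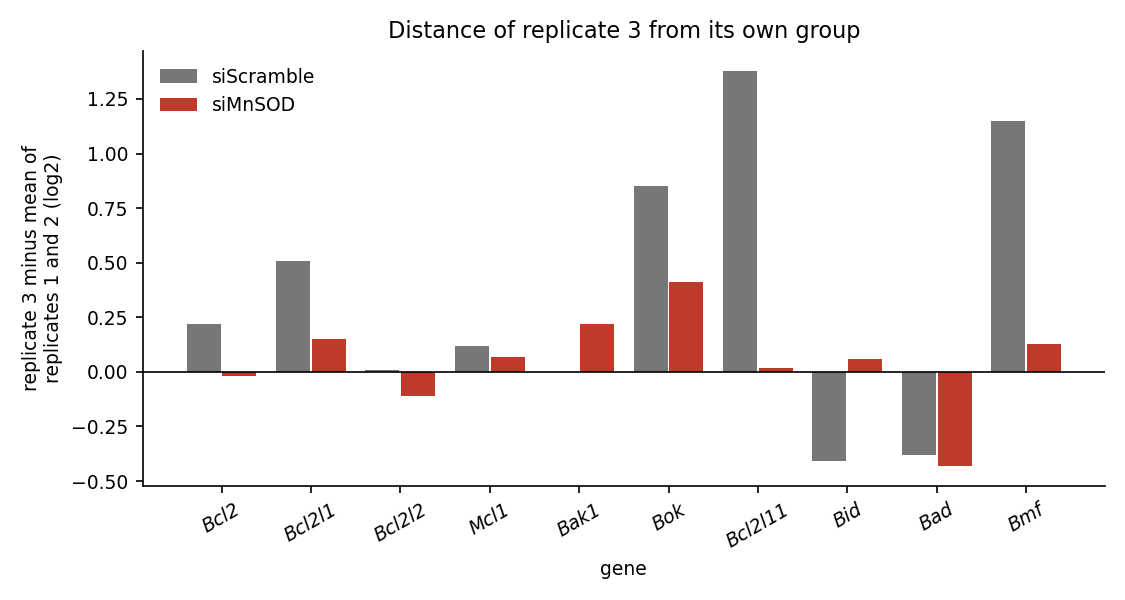
Distance of replicate 3 from the mean of replicates 1 and 2 of its own group, in log2 units, for each gene, with grey bars for siScramble and red bars for siMnSOD. Bcl2l11 and Bmf stand at 1.38 and 1.15 in siScramble and at 0.02 and 0.13 in siMnSOD.

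The distance of siScramble replicate 3 from its group differed widely among the members. It was 1.38 on the log2 scale for Bcl2l11, 1.15 for Bmf, 0.85 for Bok and 0.51 for Bcl2l1, and −0.41 for Bid and −0.38 for Bad. For Bak1, Bcl2l2, Mcl1 and Bcl2 it was between −0.00 and 0.22. A control replicate 3 at least 2-fold above its group, as for Bcl2l11 and Bmf, was seen in 1.55% of all genes. At least 2-fold away in either direction were 4.4% of all genes. All genes include 6816 under background in both groups, whereas none of the members was. In siMnSOD the largest distances were −0.43 for Bad and 0.41 for Bok, and that of Bcl2l11 was 0.02. Thus for Bad and Bok replicate 3 stood off to the same side of its group in both siMnSOD and siScramble. For Bcl2l11 and Bmf it was also on the same side in both groups. There it stood far off in the control and near its group in siMnSOD (0.02 and 0.13). The difference between these distances was not tested.

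**Figure D3:**
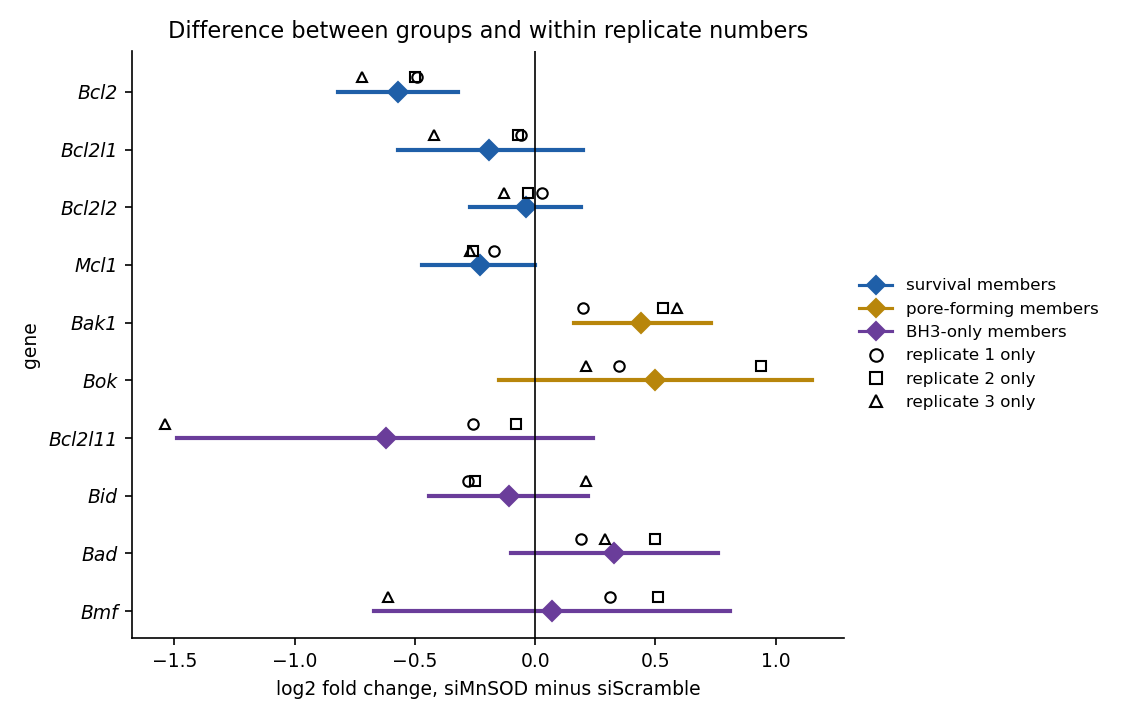
Log2 fold change of each gene (diamonds, coloured by role) with its 95% interval from limma, and the difference within each replicate number (open symbols). The intervals of Bcl2 (−0.82 to −0.32) and Bak1 (0.16 to 0.73) lie away from 0, and the 3 open symbols of Bcl2l11, Bid, Bcl2l2 and Bmf are spread most unevenly or fall on both sides of 0.

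Read over the whole family, the members' differences were modest. The median log2 fold change was −0.07 over the 10 members, against 0.01 over all genes, with 6 negative and 4 positive values. The median absolute value was 0.28, against 0.12 over all genes, a set that includes 6816 genes under background in both groups. The groups did not overlap for 4 of the 10 members and for 20.9% of all genes. In the fit blocked on replicate number Bcl2 was the 1 member called, against 7.14% of all genes. Without siScramble replicate 3 the members called were Bcl2 and Bmf, against 11.2% of all genes, and with replicates 1 and 2 alone they were Bcl2, Bok and Bmf, against 21.4%. With array weights they were Bcl2, Bak1, Bok and Bid, against 23.4%. In these settings the share of all genes called was higher as well.

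**Figure D4:**
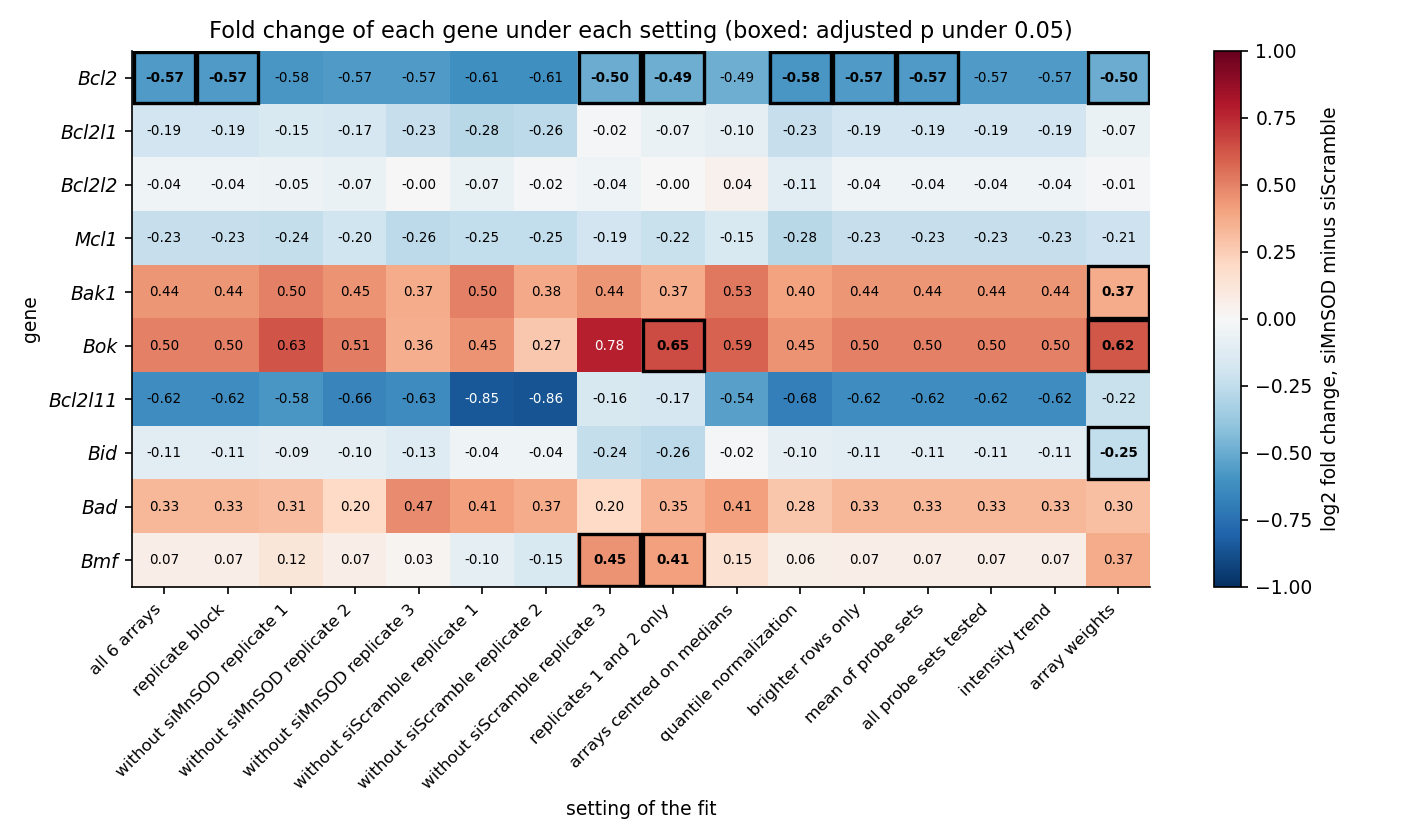
Log2 fold change of each gene (rows) in the fit to all 6 arrays and under each of 15 alternative settings (columns), with boxes where the adjusted p is under 0.05. Bcl2 stays between −0.61 and −0.49 and is boxed in the main fit and 7 alternatives, and Bmf changes sign with the control array left out.

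The genes whose pattern over the 6 arrays was most like that of Bcl2 were found among 10049 brighter genes by Pearson r of log2 intensity. They were Vav3 (r = 0.9973), Hmga2, a chromatin protein of growing cells (0.9961), the milk protein gene Csn3 (0.9941), the ubiquitin ligase gene Rnf166 (0.9941) and Arhgef2 (0.9940). Their log2 fold changes were −0.83 (SE 0.12) for Vav3, −1.04 (SE 0.14) for Hmga2, −1.80 (SE 0.15) for Csn3, −0.38 (SE 0.10) for Rnf166 and −0.68 (SE 0.12) for Arhgef2. Genes chosen for following Bcl2 over these arrays must share its direction, so these values are a description with no test. The likeness describes 6 arrays that share their group means.

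Other BCL2 family genes were looked at from a list of 18, of which 14 could be analysed. Their median log2 fold change was −0.05, 1 fell and none rose, against 1.58% of all genes called lower and 2.17% called higher. The gene that fell was Pmaip1, which encodes the BH3-only protein NOXA, a partner that neutralises MCL1. It read 57, 67.1 and 93.1 units in siMnSOD and 125, 163 and 149 units in siScramble. The fall was 1.03 on the log2 scale (SE 0.20, limma adjusted p = 0.045). The call was lost without siMnSOD replicate 1 or 2 or siScramble replicate 1 or 2 (highest adjusted p 0.21), with all probe sets tested (0.076) and with an intensity trend (0.05). Bbc3, the gene for the BH3-only protein PUMA, had −0.49 (SE 0.22, adjusted p = 0.35) and Bcl2l12 0.47 (SE 0.17, adjusted p = 0.22). The mitophagy receptor gene Bnip3l had −0.47 (SE 0.21, adjusted p = 0.35) and passed with the replicate block (adjusted p = 0.041).

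Downstream of the mitochondria, none of 19 measured genes for the apoptosome, caspases and their inhibitors passed, against 3.75% of all genes. Positive values were seen for 14 of the 19 and for 10421 of all 19938 genes. The median was 0.17, against 0.01 over all genes. The members with the smallest p were Birc5, Vdac1, Aifm1 and Casp2. Birc5, the gene for survivin, which is also a mitotic protein, read 311, 338 and 185 units in siMnSOD and 117, 132 and 35.2 units in siScramble. Birc5 had a log2 fold change of 1.72 (SE 0.52, adjusted p = 0.14 in limma), and it passed with the replicate block (adjusted p = 0.023). Control replicate 3 was the lowest array, and without it the log2 fold change was 1.12 (adjusted p = 0.049). Vdac1, a channel of the outer mitochondrial membrane, had 0.61 (SE 0.16, adjusted p = 0.11) and also passed with the block (adjusted p = 0.038). Aifm1, a mitochondrial flavoprotein gene, had 0.41 (SE 0.13, adjusted p = 0.17) and Casp2 0.39 (SE 0.16, adjusted p = 0.28).

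Of 13 measured transcription factors known to act on BCL2 family genes, 3 fell and 1 rose, and the median was −0.63 against 0.01 over all genes. By the same rule 1.58% of all genes were called lower and 2.17% higher. All genes include 6816 under background in both groups, whereas none of these factors was. Stat3, whose product activates Bcl2l1 and Mcl1, read 215, 236 and 250 units in siMnSOD and 488, 489 and 417 units in siScramble (log2 fold change −0.99, SE 0.12, limma adjusted p = 0.0096). Ddit3, the gene for CHOP, which represses Bcl2 and activates Bcl2l11 in stressed cells, read 62.6, 66.9 and 53.4 units in siMnSOD and 624, 604 and 155 units in siScramble (−2.68, SE 0.52, adjusted p = 0.043). Control replicate 3 was the lowest control for Ddit3. Whether any of these factors bears on the levels of the members was not tested. Myc also fell (−1.16, SE 0.20, adjusted p = 0.029), and E2f1, a factor of the cell cycle, rose (1.56, SE 0.24, adjusted p = 0.021).

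These 4 calls were lost without any 1 array except siScramble replicate 3, apart from that of Stat3, which also held without siMnSOD replicate 3 (highest adjusted p 0.068 for Stat3, 0.18 for Ddit3, 0.13 for Myc and 0.12 for E2f1). The calls of Ddit3 and Myc were also lost after median centring (adjusted p = 0.073 and 0.085) and with all probe sets tested (0.072 and 0.052). Foxo1 and Foxo3, singled out here after their values were seen because FOXO factors are known activators of Bcl2l11, had −0.59 (SE 0.14, limma adjusted p = 0.075) and −0.72 (SE 0.16, adjusted p = 0.062). Both passed with the replicate block (adjusted p = 0.042 for each). In siScramble replicates 1, 2 and 3, Foxo1 read 194, 182 and 200 units and Foxo3 read 369, 362 and 272 units, so control replicate 3 was the highest control for one and the lowest for the other. Their part in the Bcl2l11 values was not tested.

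Partners that bind, hide or degrade the members had no called gene among 16 measured, with a median of −0.05. Over all genes 3.75% were called. The 4 with the smallest p were Ywhag, Usp9x, Huwe1 and Ywhah. Ywhag and Ywhah encode 14-3-3 proteins, which sequester phosphorylated BAD, and had −0.51 (SE 0.14, limma adjusted p = 0.12, or 0.033 with the replicate block) and 0.37 (SE 0.14, adjusted p = 0.24). Usp9x, which removes ubiquitin from MCL1, had −0.51 (SE 0.16, adjusted p = 0.16), and Huwe1, a ligase that adds it, had −0.31 (SE 0.12, adjusted p = 0.23).

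**Figure D5:**
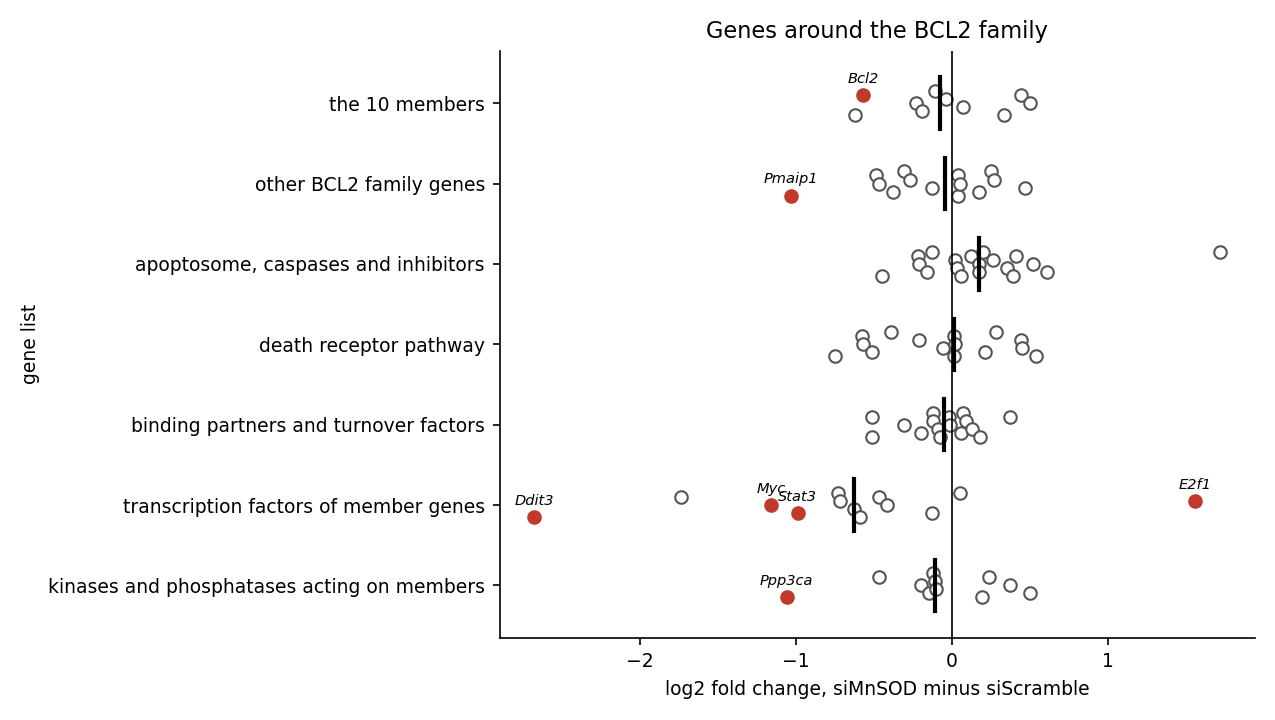
Log2 fold change of every measured gene in the 10-member family and in 6 lists of related genes, with a bar at each list's median and red points for genes at an adjusted p under 0.05. The transcription factors have a median of −0.63 and 4 red points, whereas the family has a median of −0.07 and 1. Over all genes the median is 0.01 and 3.75% were called.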

How the data were processed

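Affymetrix Mouse Gene 1.0 ST arrays measured RNA of 6 samples, 3 siMnSOD and 3 siScramble. The deposited table holds linear normalized intensity. RMA is named in the submitters' processing notes, but the series' design text names MAS5 for the scaling, so which of them made the values is unsettled. Neither comes with a version.

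Of 35557 probe sets, 21789 had 1 symbol, updated through RefSeq (GRCm38.p6, used for names), and the brightest stood for a gene with several. This left 21559 tested rows, 19938 with 1 symbol. No filter on low values was used. The fit used log2 of the deposited values and limma 3.58.1 (lmFit and eBayes on group alone, R 4.3.3), with Benjamini-Hochberg adjustment over all rows and a threshold of 0.05. Errors are SDs over 3 arrays or standard errors of the fit. Precision is limited by how few arrays there were. The fits were tested on simulated data.

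Replicate numbers 1 to 3 recur in both groups. The labels call them biological replicates but do not say whether a number shared by both groups marks a pair. Same-numbered arrays deviated together from their group means (r = 0.30, 0.29 and 0.56), but replicates 1 and 2 correlated more across numbers (0.47 and 0.41). The main fit had no block, and the blocked fit was an alternative, with each array left out, replicates 1 and 2 alone, median centring, quantile normalization, brighter rows, the mean of probe sets, all probe sets, an intensity trend and array weights.

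The members and gene lists were chosen with earlier results of these data known. Named were all members, Sod2, called genes of each list filled up to 4 by smallest p, and the 5 genes most like Bcl2. Foxo1, Foxo3 and some cell type markers were named outside this rule after values were seen. Measured genes of the lists that are not named were fitted and entered the counts and medians of their lists. Listed genes beyond the measured ones were not analysed here.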

Additional observations from a re-analysis of the deposited data

How the results depend on the processing

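Values under the other settings are grouped here. Genes called higher and lower, 432 and 316 with all arrays, became 801 and 623 with the replicate block, 2343 and 1932 with replicates 1 and 2 only, 2486 and 2188 with array weights, and 278 and 154 with all probe sets tested. After median centring 365 were higher and 140 lower. Centring adds the same amount to every gene's log2 fold change, and the median over all tested rows moved from 0.01 to 0.09. Quantile normalization gave 493 higher and 434 lower, and rows brighter than the median row gave 588 and 464 among 10050 genes. Leaving out 1 array gave 52 to 1119 higher and 25 to 1119 lower, with both highest counts without siScramble replicate 3 and both lowest without siMnSOD replicate 2. The members called, 1 with all arrays, were 0 with centring, with all probe sets and with an intensity trend. They were 3 with replicates 1 and 2 only, 4 with array weights, and 0 to 2 without 1 array, 2 being without siScramble replicate 3. Of all genes 3.75% were called with all arrays, 7.14% with the replicate block and 11.2% without siScramble replicate 3. The share was 21.4% with replicates 1 and 2 only and 23.4% with array weights. The 6 lists around the members, which also hold general transcription factors and kinases, had 14, 19, 15, 16, 13 and 11 measured genes. Their genes called, 6 with all arrays, were 13 with the replicate block, 33 with replicates 1 and 2 only and 38 with array weights. They were 10 with quantile normalization, 8 with the brighter rows alone, 3 with all probe sets and 0 to 23 without 1 array. The count was again highest without siScramble replicate 3, and 0 without any 1 of siMnSOD and siScramble replicates 1 and 2. In the settings with more calls in these lists, the counts of genes called given above were higher as well. Sod2 kept its direction in all 15 alternatives. It missed the threshold with centring (−1.54, adjusted p = 0.069) and with all probe sets (−1.63, 0.063), and ranged from −1.88 to −1.27 without 1 array (highest adjusted p 0.13). Among the members, Bcl2l2 turned to 0.04 with centring and Bmf ranged from −0.15 to 0.45 without 1 array. The replicate block changed no member's call. The causes of these changes were not tested.

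The precision is limited by 3 arrays a group, of which 1 in each group stood apart. A member that missed the threshold was not shown to be unchanged, as its interval tells. Each gene rests on 1 probe set, so transcript forms with opposite functions, as known for Bcl2l1 and Bcl2l11, were not resolved. The arrays measured RNA and not the proteins, whose levels and binding the family acts through.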

Other observations

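The death receptor pathway, which reaches the BCL2 family through Bid, had no called gene among 15 measured, against 3.75% of all genes called. Its median log2 fold change was 0.01, with 8 positive and 7 negative values. The smallest p belonged to Tradd, an adaptor of the tumour necrosis factor receptor, which read 191, 213 and 170 units in siMnSOD and 140, 122 and 131 units in siScramble (0.54, SE 0.12, limma adjusted p = 0.067). Cflar, the gene for the caspase 8 inhibitor FLIP, read 253, 259 and 240 units in siMnSOD and 407, 411 and 312 units in siScramble. The log2 fold change of Cflar was −0.58 (SE 0.14, adjusted p = 0.075), and it passed with the replicate block (adjusted p = 0.04). The death receptor gene Tnfrsf10b had −0.51 (SE 0.14, adjusted p = 0.12), and Mlkl, which executes necroptosis, had 0.44 (SE 0.17, adjusted p = 0.27).

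Among 11 measured kinases and phosphatases that act on the members, Ppp3ca fell and none rose. Over all genes 1.58% were called lower and 2.17% higher. Ppp3ca encodes a catalytic subunit of calcineurin, a phosphatase known to act on BAD. Ppp3ca read 273, 271 and 304 units in siMnSOD and 510, 526 and 753 units in siScramble, with a log2 fold change of −1.06 (SE 0.17, limma adjusted p = 0.025). Its call was lost without any 1 array except siScramble replicate 3 (highest adjusted p 0.13). The survival kinase genes Akt1 and Akt2, whose products phosphorylate BAD, had 0.50 (SE 0.16, adjusted p = 0.17) and 0.37 (SE 0.16, adjusted p = 0.31), and Pim3 had −0.47 (SE 0.17, adjusted p = 0.21).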
